A study of Mus musculus with 2 samples.

Results

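Immediate early genes are the first genes that cells transcribe after a stimulus, within minutes and without new protein synthesis. In the kidney they respond to growth factors, injury, ischaemia and tissue handling. Signals reach them through MAP kinases and through transcription factors such as SRF with its ELK partners and CREB, and their products are unstable. Among them are subunits of the AP-1 transcription factor, other transcription factors, and genes whose products end the response, such as phosphatases and factors that degrade messenger RNA.

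The 10 genes described here were Fos, Fosb, Jun, Junb, Egr1, Dusp1, Ier2, Ier3, Zfp36 and Myc. They were chosen by name, with earlier results of these data known. Their probes were found through the RefSeq accession that the array gives each probe. All 10 genes had exactly 1 probe each, so no gene has a second probe as a check. The 10 probes occupied 19 of the 43020 gene spots of each array, because the Fos probe was printed 10 times and each other probe once. Every one of the 19 spots was well above background on both arrays, and none was saturated or marked as an outlier. The 10 genes therefore all belong to the 15979 genes measured on both arrays, of 20017 genes with a named probe.

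RNA came from glomerular regions dissected from the kidneys of male mice, bred on C57BL/6J. At 8 weeks of age both groups were given streptozotocin (STZ), which destroys insulin-producing beta cells, dissolved in citrate buffer at 100 mmol/l. The mice were killed when 32 weeks old. The TG+STZ group is labelled Sirt1-overexpressing transgenic and the WT+STZ group wild type. The promoter that drives the transgene and the number of mice behind each array are not given in the sources used here. Each group had 1 Cy3-labelled array, so there was no replicate and no test between the groups, and the differences compare 2 arrays. No group without STZ was analysed here. The study concerned Sirt1 of the renal tubule, albumin loss and claudin-1 of podocytes, and the immediate early genes were not among its stated subjects. The same slide carried both arrays, in neighbouring positions, and a single scan read them.

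The 2 arrays were alike in quality. Of the gene spots, 76.26% were well above background on the TG+STZ array and 75.04% on the WT+STZ array, and the 75th percentile of the processed signal was 2042 intensity units in TG+STZ and 1933 in WT+STZ. Values below are processed signals in these units or log2 differences, TG+STZ minus WT+STZ, after subtraction of that percentile on each array. Each difference is given with the error of the scanner software, which covers a single hybridisation and not the spread between mice. For most probes it was close to 0.20. Sirt1 itself read 2977 units in TG+STZ and 2625 in WT+STZ, a log2 difference of 0.10 ± 0.20. Markers of podocytes, endothelium, mesangium and tubules were all detected: each of 12 podocyte, 10 glomerular endothelial, 10 mesangial and 12 proximal tubule markers was measured on both arrays. Tubule RNA was thus present beside glomerular RNA. In such mixed RNA, fewer cells of a type and less RNA per cell cannot be told apart.

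The sequence just before the start of transcription was available for 7 of the 10 genes, from RefSeq on build GRCm38.p6. It is shown for the genes with the highest differences (Dusp1, Zfp36 and Jun) and for Fos, a subunit of AP-1. The difference of Fos lay within the scanner error of 1 spot. Each line gives the 250 bases before the start, 5′ to 3′, for Dusp1 at chr17:26508473-26508722, minus strand, Zfp36 at chr7:28379229-28379478, minus strand, Jun at chr4:95052223-95052472, minus strand and Fos at chr12:85473640-85473889, plus strand. Capitals mark matches to the motifs searched.
Dusp1: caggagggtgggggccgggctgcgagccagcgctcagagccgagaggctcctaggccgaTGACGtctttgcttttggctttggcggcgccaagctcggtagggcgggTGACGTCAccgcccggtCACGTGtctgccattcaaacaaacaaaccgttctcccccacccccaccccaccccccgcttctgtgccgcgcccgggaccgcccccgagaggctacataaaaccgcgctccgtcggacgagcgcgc
Zfp36: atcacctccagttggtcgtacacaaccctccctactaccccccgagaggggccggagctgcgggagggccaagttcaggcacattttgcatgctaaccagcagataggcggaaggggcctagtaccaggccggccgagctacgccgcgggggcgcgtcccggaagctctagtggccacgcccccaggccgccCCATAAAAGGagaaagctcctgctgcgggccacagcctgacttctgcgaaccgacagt
Jun: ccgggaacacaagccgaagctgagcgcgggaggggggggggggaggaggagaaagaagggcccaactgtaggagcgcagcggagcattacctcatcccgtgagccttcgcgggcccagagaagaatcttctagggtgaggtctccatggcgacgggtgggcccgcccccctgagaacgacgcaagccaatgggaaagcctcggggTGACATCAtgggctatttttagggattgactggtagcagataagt
Fos: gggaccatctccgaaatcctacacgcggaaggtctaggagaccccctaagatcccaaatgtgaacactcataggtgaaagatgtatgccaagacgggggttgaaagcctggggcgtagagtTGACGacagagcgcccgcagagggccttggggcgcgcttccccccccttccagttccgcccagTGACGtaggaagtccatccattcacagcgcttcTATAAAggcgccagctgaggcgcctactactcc

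The motifs searched on both strands were the cAMP response element TGACGTCA, its core TGACG, the variant TGACATCA of the Jun promoter, the AP-1 site TGANTCA, the E-box CACGTG and the CArG box that SRF binds. The TATA box TATAAA was searched on the strand shown. The core overlaps the full cAMP response element by construction. The full element occurred in the Dusp1 window alone of the 7 windows, and in 1.55% of 32851 such windows of all genes. The core occurred in 4 of the 7 windows (Dusp1, Fos, Fosb and Junb), against 17.8% of all windows. The Fosb window overlapped the annotated Fosb gene, and its core lay in that overlap, not before the outermost annotated start. The variant (2.93% of all windows) was found before Jun, which was fixed in advance because it was taken from the Jun promoter. The E-box was found before Dusp1 (6.02%), the TATA box before Fos (7.59%) and a CArG match before Zfp36 (1.47%). The AP-1 site was in none of the 7, against 6.75% of all windows, and the Ier3 window held none of these motifs. Sequence further than 250 bases before the start was not searched. A motif missing from a window, such as a CArG match for Fos, may lie outside it. Windows with the core belonged to genes with the highest difference (Dusp1) as well as to genes near or below 0 (Fos, Fosb and Junb).

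Among the 10 genes, Dusp1 stood clearly higher on the TG+STZ array, Zfp36 and Jun were moderately higher, Ier3 was moderately lower, and the others were close to 0 or slightly lower. In all, 3 genes were higher and 7 lower, with a median log2 difference of -0.05. The median over all 15979 genes was 0.003, with 8138 higher and 7841 lower. Of the 10, Dusp1 alone was at least 1.5-fold higher and none was at least 1.5-fold lower. Of all genes, 1.75% passed 1.5-fold upwards and 1.92% downwards. None of the 10 passed 2-fold, which 0.519% of all genes did upwards and 0.469% downwards. The difference exceeded the scanner error for 6 of the 10, 3 higher (Dusp1, Zfp36 and Jun) and 3 lower (Ier3, Myc and, only just, Fosb), against 23.7% of all genes. Against the same errors the count was 4 under median centring and loess, where Fosb and Myc lay within, 5 under spike-in centring and quantile normalization, where Fosb did, and 7 under normexp, where Fos and Junb lay past the error and Zfp36 did not. Under normexp, an alternative that starts from the median spot brightness, corrects its background and adds an offset of 50 to every signal, the median of the 10 was -0.18 and that of all genes -0.05.

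**Figure D1:**
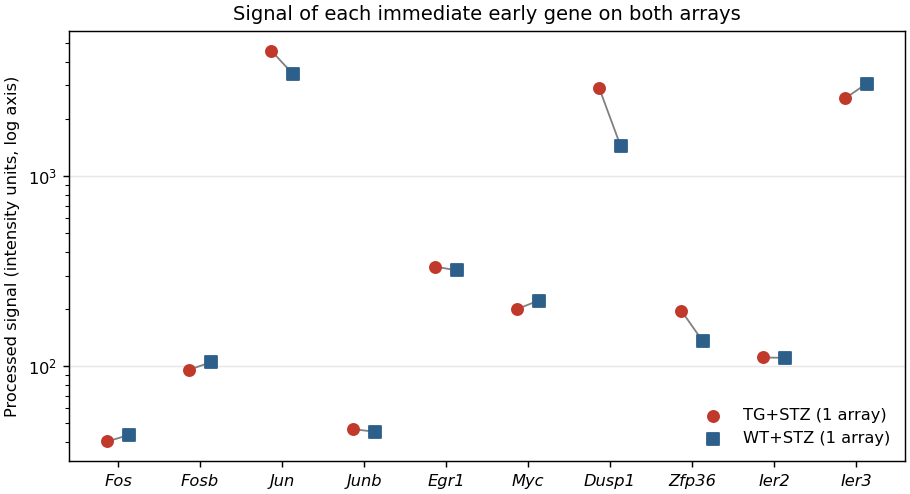
Processed signal of each gene's probe (intensity units, log axis), with TG+STZ as circles and WT+STZ as squares, 1 array each and joined by a line. The gap is widest for Dusp1 (2891 in TG+STZ, 1438 in WT+STZ). Heights of different genes are signals of different probes and are not compared with each other.

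**Figure D2:**
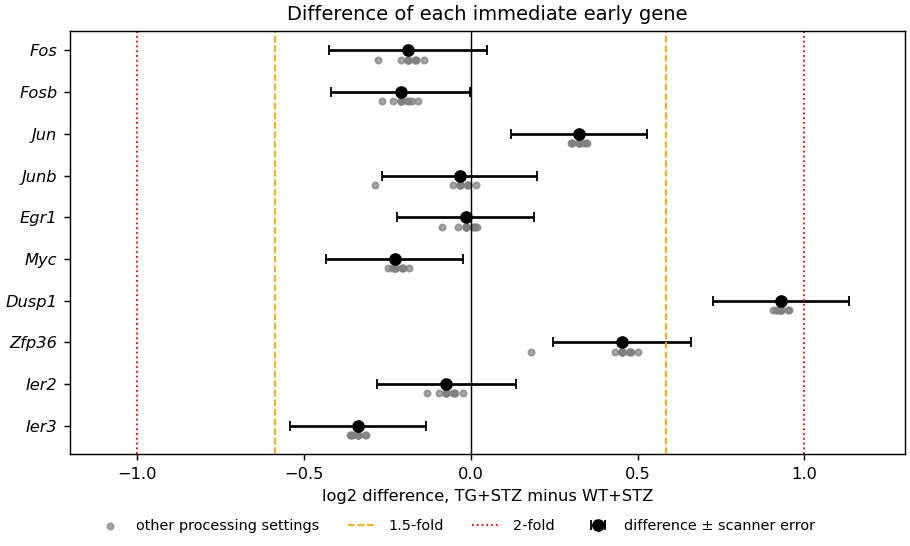
Log2 difference of each gene, TG+STZ minus WT+STZ (black points), with the scanner error as bars. Small grey points give the same difference under 11 other processing settings, and vertical lines mark 1.5-fold and 2-fold. Dusp1 alone lies beyond 1.5-fold, and the grey points of Zfp36 and Junb spread furthest.

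The AP-1 transcription factor is a dimer of a Fos and a Jun protein, or of 2 Jun proteins. Jun, the central subunit with the broadest choice of partners, read 4560 units in TG+STZ and 3449 in WT+STZ. The log2 difference was 0.32 ± 0.20, or 1.25-fold after scaling, larger than the scanner error. Across all settings tried it stayed between 0.30 and 0.35. Of all genes, 5.24% had a higher difference, and of 1834 genes within 0.5 log2 units of Jun in mean signal 2.40% did.

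Fos, whose protein dimerises with Jun proteins, was read at 10 spots. In TG+STZ the spots ran from 37.2 through a median of 40.1 to 44.5 units, against 34.9, 43.3 and 49.5 units in WT+STZ. The spots of the arrays overlapped, and the means were 40.2 ± 2.56 and 43.5 ± 4.41 units (SD over 10 spots). After scaling, 9 of the 10 spots were lower in TG+STZ and 1 was higher, with a mean log2 difference of -0.19 and an SD over spots of 0.12. The SD over spots describes the print and the scan of 1 RNA sample, not the mice. The scanner error of 0.24 was larger than the mean difference, but it is the error of 1 spot and not of a mean over 10. The signal was faint: the median pixel brightness of the spots was on average 2.21 times the local background in TG+STZ and 2.46 times in WT+STZ. Over 39 probes printed 10 times with a signal within 2-fold of that of Fos, the median SD of the spot differences was 0.13, similar to Fos. Of 1080 genes within 0.5 log2 units of Fos in mean signal, 27.0% had a lower difference.

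**Figure D3:**
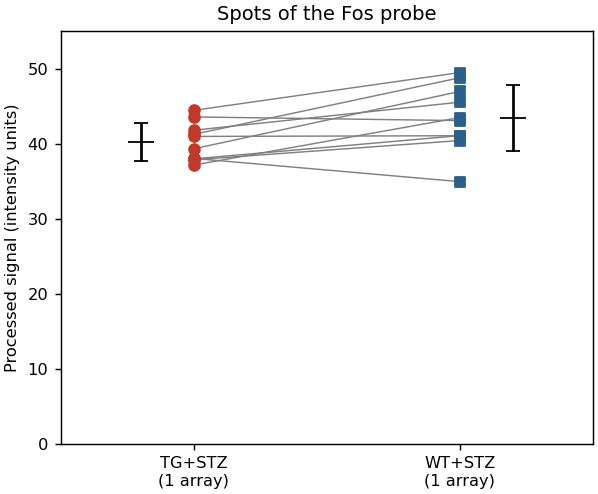
Processed signal (intensity units) of the 10 spots of the Fos probe on the TG+STZ array (left) and the WT+STZ array (right), with lines joining the same spot position and bars giving mean ± SD over spots. The arrays overlap, and 8 of the 10 spots are lower in TG+STZ before scaling.

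The other AP-1 subunits lay near or below 0. Fosb, a Fos paralogue with a splice form that accumulates on repeated stimulation, read 95.9 units in TG+STZ and 105 in WT+STZ. Its log2 difference of -0.21 ± 0.21 was the size of its error. Junb, a Jun paralogue with weaker activity of its own, read 46.7 units in TG+STZ and 45.2 in WT+STZ, a difference of -0.03 ± 0.23. That value turned to 0.02 under loess normalization and to -0.29 under normexp, so Junb has no settled direction on these arrays. Its spots stood 2.15 and 2.39 times above the local background in TG+STZ and WT+STZ. Jun stood above the other subunits in its difference. The value of Jun exceeded that of Fosb by 0.53 ± 0.29, that of Fos by 0.51 ± 0.31 and that of Junb by 0.36 ± 0.31 on the log2 scale, with errors that combine the scanner errors of both probes.

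Of 14 further AP-1 and Maf genes, 13 were measured, 6 higher and 7 lower with a median log2 difference of -0.006, and none passed 1.5-fold. Maff, a small Maf protein, was among the higher ones at 0.11. Batf3, an AP-1 factor of dendritic cells, was lowest at -0.45, followed by Atf3, a stress-induced repressor, at -0.38 ± 0.21. Fosl1 was not well above background on at least 1 array.

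Egr1, a zinc finger transcription factor induced by growth factors and injury, read 334 units in TG+STZ and 319 in WT+STZ. After scaling the log2 difference was -0.01 ± 0.20, and it took the opposite sign, up to 0.02, under median centring, spike-in centring, quantile normalization and loess. No difference of Egr1 beyond the scanner error was seen. Of 8 genes that EGR1 activates or that encode its NAB corepressors, 4 were higher and 4 lower, with a median of -0.02. F3, tissue factor, and Nab1, a corepressor, were highest at 0.20 ± 0.14 and 0.06. Plau, the urokinase plasminogen activator, and Icam1, an adhesion molecule, were lowest at -0.39 and -0.38 ± 0.21.

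Myc, a helix-loop-helix factor that drives growth and ribosome production, read 200 units in TG+STZ and 222 in WT+STZ. The log2 difference of -0.23 ± 0.20 was slightly larger than the error. It ranged from -0.25 to -0.18 over all settings, and of 1393 genes of similar signal 16.7% were lower. Of 11 measured partners and relatives of MYC, 5 were higher and 6 lower. Mycl, a MYC paralogue, was highest at 0.49 ± 0.23 but stood at 0.07 under normexp, and Mlx, a partner of the MAX-like network, was next at 0.19. Mxd3 and Mnt, repressors that compete for MAX, were lowest at -0.29 ± 0.28 and -0.17. Of 17 MYC target genes 11 were higher and 6 lower, with a median of 0.04. Odc1, the rate-limiting enzyme of polyamine synthesis, was highest at 0.89 ± 0.12, with 47840 units in TG+STZ and 25412 in WT+STZ and its 3 probes between 0.81 and 0.99. Ncl, nucleolin, followed at 0.12 ± 0.14. Ppat, of purine synthesis, was lowest at -0.16 ± 0.14, and Tert, the catalytic subunit of telomerase, stood at -0.13 ± 0.21.

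Dusp1 encodes a phosphatase that inactivates the MAP kinases p38, JNK and ERK and is induced both by those kinases and by glucocorticoids. Its probe read 2891 units in TG+STZ and 1438 in WT+STZ, a signal ratio of 2.01 before scaling. The scaled log2 difference was 0.93 ± 0.20, or 1.90-fold, and it lay between 0.91 and 0.95 in every setting tried. It was 4.55 times the scanner error. Among all genes, 0.632% had a higher difference. Of 1926 genes within 0.5 log2 units of Dusp1 in mean signal, 5 had a higher one, namely Jchain at 2.23, Syt10 at 1.79, Sc5d at 1.22, Upk1a at 1.16 and Slc25a22 at 0.98. These 5 names were read off after their values were seen. Within the arrays, the difference of Dusp1 exceeded that of Fos by 1.12 ± 0.31, that of Egr1 by 0.94 ± 0.29, that of Jun by 0.60 ± 0.29 and that of Zfp36 by 0.48 ± 0.29.

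**Figure D4:**
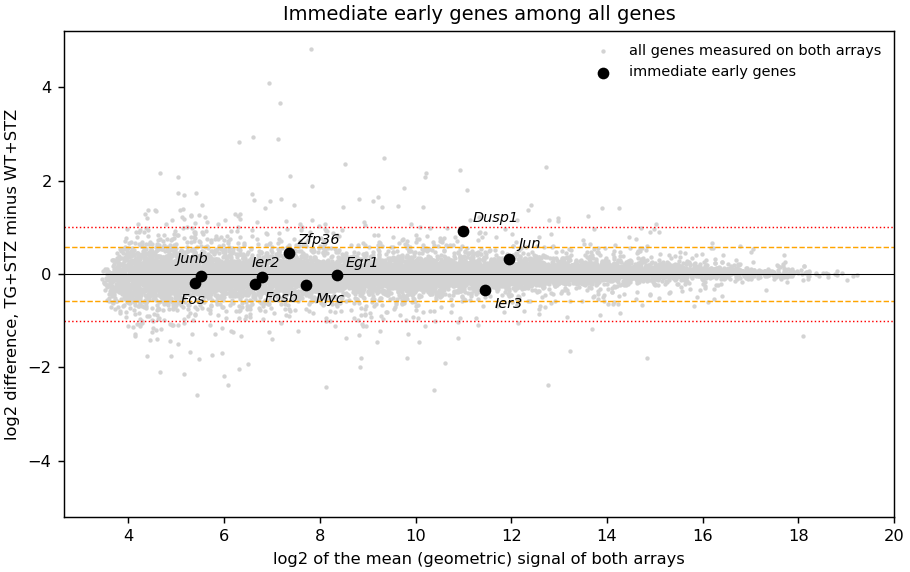
Log2 difference, TG+STZ minus WT+STZ (vertical), against the log2 mean signal of both arrays (horizontal), with all 15979 genes in grey and the 10 immediate early genes in black. Dashed and dotted lines mark 1.5-fold and 2-fold. Dusp1 lies at 0.93 outside the grey mass at its signal, while Fos and Junb lie in the wider scatter of dim genes.

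No other MAP kinase phosphatase or feedback inhibitor measured came near the 0.93 of Dusp1. Of 15 such genes 8 were higher and 7 lower, with a median of 0.01, and none passed 1.5-fold. Dusp6, the ERK phosphatase of the cytoplasm, was highest at 0.45 (10881 units in TG+STZ, 7568 in WT+STZ), and Spry4, an inhibitor of growth factor signalling, was next at 0.17 ± 0.21. Dusp3 and Dusp4 were lowest at -0.20 and -0.14. The kinases and factors upstream were also near 0. Of 33 genes 14 were higher and 19 lower, with a median of -0.03. Map2k7, a kinase of the JNK pathway, stood at 0.61 ± 0.21 and Mapk13, a p38 kinase, at 0.44. Rps6ka2, a ribosomal S6 kinase with a faint probe (15.2 units in TG+STZ, 23.0 in WT+STZ), stood at -0.68 ± 0.31, and Mapk10, a JNK kinase, at -0.24. Map2k7 and Rps6ka2 came to 0.30 and -0.34 under normexp, within 1.5-fold.

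Of 14 glucocorticoid response genes, a list that does not hold Dusp1, 12 were higher and 2 lower, with a median of 0.26. The count of higher genes was 11 or 12 and the median 0.24 to 0.29 over all settings. Of all genes, 50.9% were higher. The list was chosen with earlier results of these data known, so its counts are not independent of these arrays. Cebpd and some others of the 14 also stand in the early response lists below, so the lists are not independent. Of the 14, 3 were at least 1.5-fold higher, against 1.75% of all genes, and none was 1.5-fold lower. The 3 became 2 under normexp and under 3 of the other alternatives. Cebpd, a transcription factor of the acute phase, was highest at 0.96 (5387 units in TG+STZ, 2618 in WT+STZ). Pdk4, which restrains glucose oxidation and also responds to fasting, stood at 0.71. Fkbp5, a chaperone that limits glucocorticoid receptor activity, stood at 0.59 and at 0.55 under normexp. Zbtb16 was lowest at -0.48 and Tat, tyrosine aminotransferase, stood at -0.18 ± 0.21. Per1, which also belongs to the circadian clock, stood at 0.21 ± 0.20. Some of the 12 were higher by less than their scanner error, namely Sgk1 at 0.20 ± 0.20, Tsc22d3 at 0.10 ± 0.20, Cdkn1a at 0.06 ± 0.17 and Errfi1 at 0.03 ± 0.20. Over the related lists, the genes with differences nearest to that of Dusp1 were Cebpd, with a gap of 0.03, Odc1 with a gap of 0.04 and Plk3, a stress-responsive kinase, with a gap of 0.18. This likeness rests on 2 arrays, and Odc1 and Plk3 are not among the 14 glucocorticoid response genes. Fat cell and fibroblast markers were also higher on the TG+STZ array, with medians of 2.06 over 6 measured genes and 0.47 over 11, and their part in the values of the glucocorticoid response genes was not tested.

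Zfp36 encodes tristetraprolin, which binds AU-rich elements of cytokine messenger RNAs and speeds their decay. It read 196 units in TG+STZ and 136 in WT+STZ, a log2 difference of 0.45 ± 0.21, or 1.37-fold. Of all genes, 3.05% had a higher difference, and of 1294 genes of similar signal 4.48% did. Under normexp the difference was 0.18, under the scanner error. Its sign was the same in all settings.

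Of 11 cytokine and growth factor genes whose messages tristetraprolin is known to bind, 7 were measured, 1 higher and 6 lower, with a median of -0.55. That median is the value of Tnf (-0.55 ± 0.26), whose probe was faint, with 25.2 units in TG+STZ and 34.9 in WT+STZ. The probes of Ccl3 (30.2 and 47.8 units) and Lif (22.1 on both arrays) were faint as well. Cxcl1, a neutrophil chemokine, stood highest at 0.09 ± 0.21 and Lif at -0.08 ± 0.29. Ccl2, a monocyte chemokine, was lowest at -1.12 (351 units in TG+STZ, 722 in WT+STZ), and Il1b, interleukin 1 beta, stood at -0.74 ± 0.21. Of the 7, 3 were at least 1.5-fold lower, against 1.92% of all genes, and 1 was under normexp. Under normexp the median was -0.40, with Ccl2 at -1.02 and Il1b at -0.58, the latter within 1.5-fold. Il6, Il10, Csf2 and Cxcl2 were not well above background on at least 1 array. Markers of white blood cells, which make several of these cytokines, were lower on the same array: all 14 measured markers were lower in TG+STZ, with a median of -0.22 and summed signals of 25875 units in TG+STZ and 26873 in WT+STZ. Their differences ran from -0.79 to -0.03, and those nearest 0 lay within their scanner error. Under loess 1 of the 14 was higher. Jchain, an antibody chain gene outside this list, stood at 2.23. The part of white blood cells in the cytokine values was not tested.

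Ier2 and Ier3 are small early response genes. Ier2, which encodes a nuclear protein, read 111 units on both arrays, and its log2 difference of -0.07 ± 0.21 lay within the error. Ier3, which encodes a membrane-associated regulator of cell survival, read 2565 units in TG+STZ and 3068 in WT+STZ. Its difference of -0.34 ± 0.20 (1.26-fold lower) was the furthest below 0 of the 10 genes and ranged from -0.36 to -0.31 over all settings. Of all genes 6.17% were lower still, and of 1920 genes of similar signal 2.03% were. The difference of Dusp1 exceeded that of Ier3 by 1.27 ± 0.29 and that of Jun did by 0.66 ± 0.29.

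Further early response genes lay on both sides of 0. Of 17 measured transcription factors 10 were higher and 7 lower, with a median of 0.02. Cebpd at 0.96 and Id1, an inhibitor of helix-loop-helix factors, at 0.59 passed 1.5-fold, and Id1 went as low as 0.57, within 1.5-fold, under other settings. Egr2, a paralogue of Egr1, was lowest at -0.48 ± 0.22, with Bhlhe40, a repressor linked to the clock, at -0.32. Egr3, Egr4 and Nr4a3 were not well above background on at least 1 array. Of 32 measured effectors 13 were higher and 19 lower, with a median of -0.07. Gadd45g, a stress-response gene, was highest at 1.42 (32857 units in TG+STZ, 11602 in WT+STZ) and Plk3 next at 0.74. Ier5l, a relative of Ier2, was lowest at -0.70 (5399 units in TG+STZ, 8310 in WT+STZ), with Nfkbiz at -0.32 ± 0.21. Over all 162 measured genes of the related lists, with the 10 left out, 79 were higher and 83 lower. Of these, 8 passed 1.5-fold upwards and 5 downwards, where 1.75% and 1.92% of all genes did. Under normexp the counts were 6 and 2, and with the 75th percentile of detected probes 5 and 5.

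**Figure D5:**
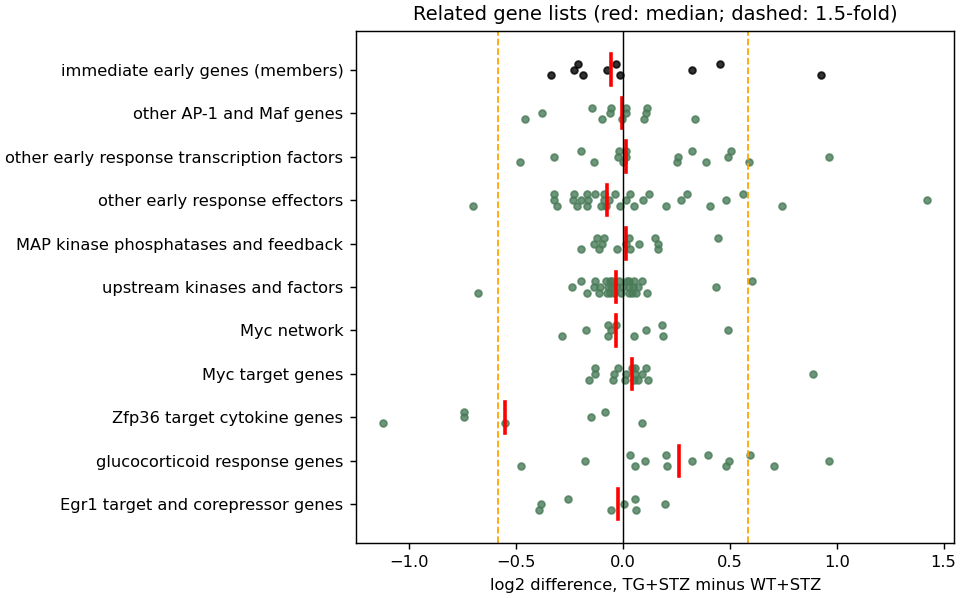
Log2 difference, TG+STZ minus WT+STZ, of each measured gene (points) in the 10 immediate early genes (black) and in 10 related lists (green), with the median of each in red and 1.5-fold as dashed lines. Medians lie near 0 except for glucocorticoid response genes (0.26) and cytokine genes (-0.55).

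Other cell types also differed between the arrays. All 6 fat cell markers measured on both arrays were higher in TG+STZ, with a median of 2.06 and summed signals of 17666 units in TG+STZ and 11890 in WT+STZ. Under normexp that median was 0.96. Most of the sum was Fabp4, a fatty acid binding protein also found in endothelium, with 15379 units in TG+STZ and 11503 in WT+STZ and a difference of 0.34. Of the 10 listed, 4 were not well above background on at least 1 array, namely Adipoq (156 units in TG+STZ, 7.07 in WT+STZ), Ucp1 (274 and 3.63), Plin1 (46.8 and 10.6) and Lep (3.84 and 3.10). Of 11 fibroblast markers 9 were higher, with a median of 0.47 and summed signals of 28094 units in TG+STZ and 21004 in WT+STZ. Medians were -0.07 for 12 podocyte, -0.11 for 10 glomerular endothelial, -0.12 for 10 mesangial, -0.02 for 12 proximal tubule and -0.15 for 13 distal nephron markers. Immediate early genes are transcribed in many cell types, and whether these shifts contribute to the Dusp1, Zfp36, Jun or Ier3 values was not tested.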

How the data were processed

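Agilent 1-colour arrays of 2 samples were used. The deposited scanner tables hold intensity on a linear scale with its error and flags. Per the file headers, the authors extracted and background-subtracted them with Feature Extraction 10.7.1.1 from Agilent; version 10.3.1.1 stands in the submitters' processing notes. The value table held the same deposited intensity at all 44397 spots of each array, with column medians of 162 (TG+STZ) and 158 (WT+STZ), so it was not normalized between arrays.

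Control spots and outlier spots (109 and 114) were left out, spots of a probe were averaged, and log2 values were centred on the 75th percentile of gene spots. A probe entered if at least 0.5 of its spots were well above background on both arrays and none was saturated. Of 39429 probes, 26412 were named through RefSeq accessions (GRCm38.p6). The headers name an older build, so the only coordinates printed are those of the RefSeq promoter sequences, on GRCm38.p6. The error of a difference combines the software's errors of both arrays, as for 1 spot, and is divided over the probes of a gene.

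With 1 array per group there was no test. The members and lists were chosen with earlier results of these data known. Named besides the members are the 2 highest and 2 lowest genes of each related list and the 3 nearest to Dusp1. A gene that this rule selects is not reported here. Fkbp5, Per1, the genes above Dusp1 at its signal and genes not well above background were named in addition, with their values in view. So were Sgk1, Tsc22d3, Cdkn1a, Errfi1, Tnf and Ccl3. The 11 alternatives were normexp (offset 50), other centrings, quantile and loess normalization (span 0.3), the value table, other filters, the brightest probe and keeping outlier spots. The steps were tested on simulated data. Normexp ran in limma 3.58.1 (R 4.3.3), loess in statsmodels 0.14.6, the rest in Python 3.11.15 with pandas 2.3.3 and numpy 2.4.6, and plots in matplotlib 3.10.9.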

Additional observations from a re-analysis of the deposited data

How the results depend on the processing

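Each of the 10 differences, their median and the counts past 1.5-fold and 2-fold were recomputed under 11 alternatives. The value table, both other filters, the brightest probe and keeping outlier spots (5 alternatives) left every value identical by construction and say nothing of stability. Of the 78 values under the other 6, 76 moved by less than the scanner error or, for counts, not by more than 1.5 times. Among these 6, median centring, spike-in centring and the 75th percentile of detected probes shift every gene by the same small amount. They cannot change how the genes stand to each other and say little of the stability of a single gene. The 2 others were Zfp36 at 0.18 and Junb at -0.29, both under normexp background correction, which used median spot brightness in place of the processed signal and added an offset of 50. For Junb the median brightness was 71.0 in TG+STZ and 74.0 in WT+STZ, while the processed signals were 46.7 and 45.2. The median of the 10 genes, -0.05, ran from -0.18 under normexp to -0.003 under loess, and 3 to 5 of the 10 were higher. Over all genes the counts past 1.5-fold were 280 higher and 306 lower, and 109 and 149 under normexp. With no filter on dim probes they were 741 and 849, over 20017 genes, and with the laxer detection flag 578 and 671. Past 2-fold they were 83 and 75, and 36 and 29 under normexp, 295 and 323 with no filter, and 202 and 217 with the laxer flag. No paired analysis was possible because each group had 1 array, and no array could be left out. Signal over background limits the dim genes: spots of Fos, Fosb and Junb averaged at most 3.74 times the local background.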
